A study of Mus musculus with 6 samples.

Results

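The S100 calcium-binding protein genes were followed in TuBo cells with and without p140Cap. The set holds 10 genes (S100a1, S100a4, S100a6, S100a8, S100a9, S100a10, S100a11, S100a13, S100a14 and S100a16) of the 21960 genes in the deposited counts, and its members were found by gene symbol, a rule that uses no measured value but was set with earlier results of these data known. TuBo is a mammary carcinoma line grown from a tumor of a BALB/c mouse that carries the rat Her2/neu transgene under the MMTV promoter. RNA was sequenced from 3 mock libraries, which the labels give as Balb-NeuT of genotype wt, and from 3 p140Cap libraries, given as Balb-NeuT overexpressing p140Cap. The p140Cap cells carry a p140Cap cDNA in a pBabe-puro retrovirus and are a pool of puromycin-selected clones that each grew from a single cell, so that clonal selection and p140Cap itself cannot be told apart. The NeuT background is shared by both groups. The labels speak of cell lines in one field and of mice in another, and the samples were read here as cells. No source says that the replicates were separate cultures, so the p-values measure only the spread between these libraries.

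S100 proteins are small acidic proteins with a pair of EF-hand loops that bind calcium. Most of them form dimers, and calcium opens a hydrophobic face through which the dimer holds its target proteins. Targets include annexins, cytoskeletal proteins and ubiquitin ligase adaptors, and some S100 proteins leave the cell and act on receptors such as RAGE and TLR4. In epithelium and carcinoma the family is best known for S100A4, linked to cell motility and metastasis, and for S100A8 and S100A9, the calprotectin subunits that neutrophils hold in large amounts. Most S100 genes lie side by side in 1 cluster next to the epidermal differentiation genes.

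Counts were scaled to CPM, the reads on a gene per 1000000 reads of its library, with TMM factors, and edgeR's quasi-likelihood test was run on the 11800 genes with enough reads, at an adjusted p of 0.05. The mock libraries held 33058719 to 75506562 reads and the p140Cap libraries 13770385 to 15364850, a ratio of medians of 2.62, so rare transcripts were measured less precisely in p140Cap cells. Srcin1, which encodes p140Cap, had 509 to 1192 reads in mock and 30546 to 36989 in p140Cap libraries, as the labels state, with a log2 fold change of 7.29 (SE 0.09). Of the 9 epithelial markers listed, 8 were tested, and their summed level was 6428 to 6967 CPM in mock and 7191 to 7455 CPM in p140Cap libraries. Within this sum Epcam, Cdh1, Krt18 and Cldn4 rose, Krt7 fell from 803 ± 58.4 to 447 ± 12.8 CPM (SD, n = 3; log2 fold change -0.84), and 3 were not called.

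Of the 10 members, 8 had enough reads for the test. S100a1, S100a13, S100a14 and S100a16 were higher in p140Cap cells, S100a4 and S100a6 were lower, and S100a10 and S100a11 were not called. The 6 called of 8 tested stand beside 71.1% of all tested genes called, the 4 higher beside 35.2% and the 2 lower beside 35.9%. The libraries of the groups did not overlap for the same 6 members, against 73.4% of all tested genes. The median log2 fold change of the 8 members was 0.25, and that of all tested genes was -0.00.

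All 10 members lie on chromosome 3, in 2 groups that are 2825 kb apart. The stretches in front of several of them are shown because their genes moved in different directions: S100a1, S100a13 and S100a16 were higher, S100a4 and S100a6 were lower, and S100a11 was not called. RefSeq windows of GRCm38.p6 were found for 8 of the 10 members and not for S100a10 and S100a14. Each stretch of 250 bases runs 5′ to 3′ on the strand of its gene and ends at the base before the start of transcription. The stretch for S100a1 and S100a13 is the 104 bases between their start sites, on the plus strand. The positions are chr3:90514331-90514434 for S100a1 and S100a13, chr3:90537004-90537253 for the first of the 2 windows listed for S100a16, chr3:90603520-90603769 for S100a4, chr3:90612644-90612893 for S100a6 and chr3:93520246-93520495 for S100a11, the last 4 also on the plus strand. Capitals mark the matches described after the sequences.
S100a1 and S100a13: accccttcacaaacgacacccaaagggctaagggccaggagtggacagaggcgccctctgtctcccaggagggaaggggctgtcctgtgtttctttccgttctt
S100a16: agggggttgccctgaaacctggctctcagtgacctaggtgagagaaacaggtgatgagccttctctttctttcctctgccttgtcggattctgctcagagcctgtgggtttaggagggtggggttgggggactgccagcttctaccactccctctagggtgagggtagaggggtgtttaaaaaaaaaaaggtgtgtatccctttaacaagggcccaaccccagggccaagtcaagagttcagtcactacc
S100a4: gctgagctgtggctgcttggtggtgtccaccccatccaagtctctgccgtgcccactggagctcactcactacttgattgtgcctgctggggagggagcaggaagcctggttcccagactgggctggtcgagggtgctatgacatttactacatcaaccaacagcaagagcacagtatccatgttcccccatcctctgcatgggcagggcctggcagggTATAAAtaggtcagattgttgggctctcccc
S100a6: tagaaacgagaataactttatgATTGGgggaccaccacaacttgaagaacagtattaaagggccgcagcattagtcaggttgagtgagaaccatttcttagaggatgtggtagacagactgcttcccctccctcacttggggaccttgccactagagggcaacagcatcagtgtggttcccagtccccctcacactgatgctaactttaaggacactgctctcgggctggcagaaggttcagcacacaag
S100a11: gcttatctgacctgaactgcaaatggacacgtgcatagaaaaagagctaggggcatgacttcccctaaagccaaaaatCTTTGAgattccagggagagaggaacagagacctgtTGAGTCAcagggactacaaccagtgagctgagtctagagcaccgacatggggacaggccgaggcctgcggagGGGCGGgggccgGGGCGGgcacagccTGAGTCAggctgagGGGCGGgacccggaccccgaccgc

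A set of 5 short motifs were searched on both strands of the 250 bases before each start: the letters TATAAA as a core promoter box, the letters CCAAT as another such box, the letters GGGCGG as the box bound by Sp1, the letters TGANTCA for AP-1 and the letters TCAAAG for TCF/LEF factors. None of these motifs overlapped another in the stretches shown. The 250 bases before S100a4 held TATAAA 31 to 26 bases before the start, and those before S100a8 held it at 30 to 25 bases, a motif present in 12.4% of 32851 mouse windows of the same length. Those before S100a6 held CCAAT, read on the other strand, at 228 to 224 bases, which 33.8% of windows hold. Before S100a11 lay GGGCGG at 3 places (32.7% of windows hold it), TGANTCA at 2 (6.75%) and TCAAAG, read on the other strand, at 1 (13.8%). GGGCGG also lay before S100a9, at 223 to 218 bases. No match was found in the windows of S100a1 and S100a13 or in the first of the 2 windows of S100a16, which says only that these letters are not there. A match is a description of the letters and not of a bound site.

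The 4 higher genes are neighbors. S100a1 (ENSMUSG00000044080; 90511034 to 90514330, minus strand) encodes a protein best known from heart muscle, where it binds calcium-handling proteins. It had 58.4, 58.4 and 65.3 CPM in the mock libraries and 89.6, 87.1 and 97.3 CPM in the p140Cap libraries. The lowest p140Cap library thus lay above the highest mock library. The log2 fold change was 0.59 (SE 0.06, edgeR adjusted p = 1.38e-07), a level 1.51-fold that of mock cells.

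S100a13 (ENSMUSG00000042312; 90514233 to 90524581, plus strand) encodes a protein that takes part in the release of FGF1 and interleukin 1α from cells. Its level was 9.12, 9.71 and 8.86 CPM in mock and 14.04, 14.17 and 15.2 CPM in p140Cap libraries. The groups did not overlap, and the log2 fold change was 0.65 (SE 0.08, edgeR adjusted p = 2.07e-06). S100a13 and S100a1 are read in opposite directions, their gene records overlap by 98 bases, and the start sites of their listed windows are 105 bases apart. S100a13 also overlaps Chtop on the other strand and Gm56783 on its own strand in the GENCODE annotation. The kit keeps the strand according to the paper's methods. How the counting used the strand is not stated in the sources used here, so reads of the overlapping stretches may be divided between these genes.

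S100a14 (ENSMUSG00000042306; 90526849 to 90528837, plus strand), an S100 gene of epithelia, was read at 3.57, 3.19 and 3.60 CPM in mock and at 7.18, 5.72 and 5.29 CPM in p140Cap libraries. It had the largest rise of the members, with a log2 fold change of 0.81 (SE 0.13, edgeR adjusted p = 3.42e-05), and the widest spread in p140Cap cells among the 4 higher genes relative to its level. When single libraries were left out, the change lay between 0.67 and 0.90.

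S100a16 (ENSMUSG00000074457; 90537254 to 90543151, plus strand) is among the most widely expressed S100 genes across tissues. It had 62.6, 64.5 and 65.2 CPM in mock and 89.6, 91.9 and 90.6 CPM in p140Cap libraries. Both groups were narrow, with SDs of 1.36 and 1.13 CPM, and S100a16 had the smallest p of the members. Its log2 fold change was 0.50 (SE 0.05, edgeR adjusted p = 7.41e-08).

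Both lower genes lie 60.6 kb and further to the right of S100a16. S100a4 (ENSMUSG00000001020; 90603770 to 90606045, plus strand) encodes metastasin, also used as a fibroblast marker, which binds non-muscle myosin and is linked to cell movement. It was rare here, with 185, 119 and 79 reads in mock but only 8, 13 and 24 in p140Cap libraries. These counts equal 2.42, 2.99 and 2.37 CPM in mock and 0.527, 0.886 and 1.76 CPM in p140Cap cells. The groups did not overlap, but the p140Cap libraries differed among themselves by more than the mock libraries did. The log2 fold change was -1.31 (SE 0.27, 95% interval -1.88 to -0.74, edgeR adjusted p = 0.00038), a level 2.48-fold lower and larger in size than the change of 94.3% of tested genes. S100a4 is overlapped on its own strand by Gm42674 in the GENCODE annotation, to which no read was assigned in any library. Without p140Cap replicate 3 the log2 fold change was -1.87, and without p140Cap replicate 1 it was -0.98, and both were called. Of the 10 other fibroblast markers listed, 5 had no read in any library (Col1a2, Col3a1, Dcn, Lum and Thy1), 3 were tested, and the summed level was 19.8 to 20.3 CPM in mock and 15.8 to 18.1 CPM in p140Cap libraries. Col1a1 rose and Postn fell, and the part of fibroblast RNA in the S100a4 values was not tested.

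S100a6 (ENSMUSG00000001025; 90612894 to 90614414, plus strand) encodes calcyclin, an S100 protein of proliferating cells that binds the ubiquitin ligase adaptor CacyBP and several annexins. It had 389, 410 and 367 CPM in mock and 280, 264 and 285 CPM in p140Cap libraries. Every p140Cap library lay below every mock library. The log2 fold change was -0.49 (SE 0.05, edgeR adjusted p = 3.09e-07), so p140Cap cells held 71.0% of the mock level.

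S100a11 and S100a10 lie apart from the others, at the far side of the epidermal differentiation genes. S100a11 (ENSMUSG00000027907; 93520496 to 93526288, plus strand) encodes calgizzarin, which binds annexin A1. It had 310, 303 and 334 CPM in mock and 306, 324 and 314 CPM in p140Cap libraries, and the groups overlapped. Its log2 fold change was -0.00 (SE 0.05, 95% interval -0.11 to 0.10, edgeR adjusted p = 0.95). The annotation also holds a processed pseudogene, S100a11-ps, on another chromosome, and reads shared with it could not be told apart here.

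S100a10 (ENSMUSG00000041959; 93555117 to 93564645, plus strand) encodes the S100 protein that does not respond to calcium and forms a tetramer with annexin A2 at the plasma membrane. Its level was 199, 206 and 205 CPM in mock and 212, 182 and 211 CPM in p140Cap libraries. The p140Cap libraries lay on both sides of the mock libraries. The log2 fold change was -0.01 (SE 0.06, 95% interval -0.13 to 0.11, edgeR adjusted p = 0.882). Both intervals stay within 0.13 of 0, while the smallest change of a called member was 0.49 in size, but they do not show that the levels were equal.

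Reads of the calprotectin genes were close to none. S100a8 (ENSMUSG00000056054; 90669071 to 90670034, plus strand) was hit by 3, 2 and 4 reads in mock and by 0, 1 and 0 in p140Cap libraries. With each group's reads pooled, the mock level was 2.62 times that in p140Cap (95% exact interval 0.362 to 115), so no difference was detectable at this depth. Without p140Cap replicate 1 the ratio was 1.70 (0.236 to 74.6), and without p140Cap replicate 2 no p140Cap read was left. S100a9 (ENSMUSG00000056071; 90692630 to 90695721, minus strand) had 0 reads in all 6 libraries, which allows up to 0.0201 CPM in pooled mock and 0.069 CPM in pooled p140Cap libraries, from a limit of 3 reads. Intervals and limits cover counting error only. Of the 14 neutrophil and myeloid markers listed, 8 had no read in any library, among them Ptprc, Ly6g, Mpo and Lyz2. Their summed level was 59.2 to 60.9 CPM in mock and 79.4 to 89.1 CPM in p140Cap libraries, of which Ltf, a gene that mammary epithelium also expresses, made up 95.9%. Without Ltf, the other 13 markers summed to 2.08 to 2.40 CPM in mock and 3.38 to 4.09 CPM in p140Cap libraries, and Cd68 alone, a gene of lysosomes, made up nearly all of that sum in every library (lowest share 95.65%).

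**Figure D1:**
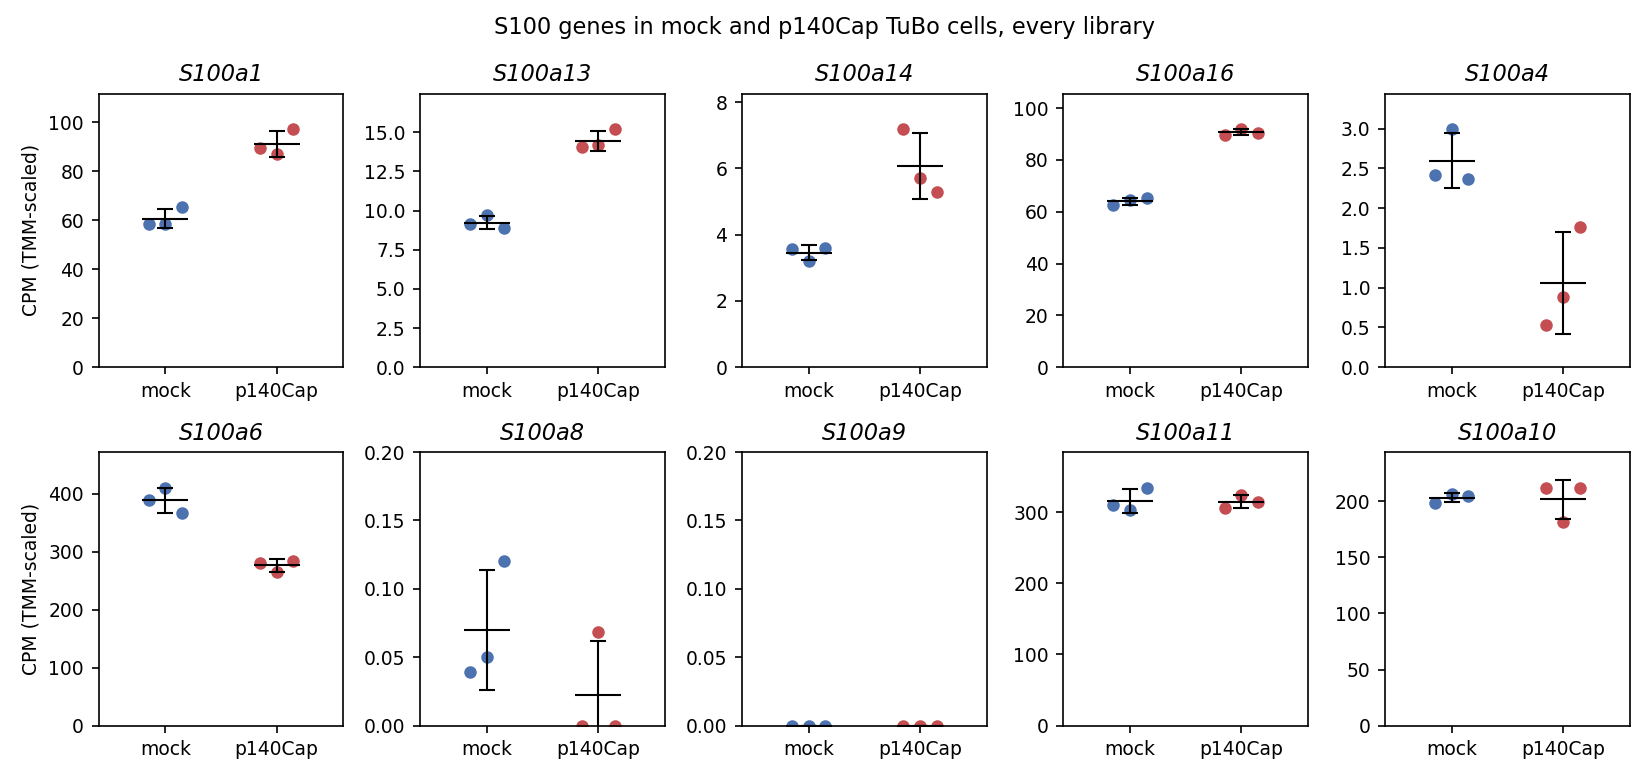
Level of each S100 member in each of the 6 libraries (1 panel a gene, CPM on linear axes from 0 with a range of their own, points for libraries, bars for the mean ± SD of 3 libraries). Mock and p140Cap libraries do not overlap for S100a1, S100a13, S100a14 and S100a16, which were higher in p140Cap cells, or for S100a4 and S100a6, which were lower, whereas S100a10 and S100a11 overlap.

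With 3 libraries a group, the smallest p an exact two-sided permutation test can give is 0.1. Each of the 6 called members reached it, and S100a10 and S100a11 gave 1.0. Groups that do not overlap give this smallest p, so it repeats the lack of overlap, which 73.4% of all tested genes shared.

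The family's summed level moved little. The 10 members together held 1033, 1058 and 1051 CPM in mock libraries and 999, 969.9 and 1020 CPM in p140Cap libraries, so the sum was lower in every p140Cap library. Their shares, which are of reads and not corrected for transcript length, moved more than their sum. S100a6 took 37.7%, 38.8% and 34.9% of member reads in mock and 28.0%, 27.2% and 27.9% in p140Cap libraries. S100a1 took 5.52% to 6.22% in mock and 8.97% to 9.54% in p140Cap libraries, and S100a16 took 6.05% to 6.20% and 8.88% to 9.47%. S100a6, S100a10 and S100a11 together fell from between 86.2% and 86.9% of member reads to between 79.4% and 79.9%. A share can move when another member moves, so these shares repeat the changes of single genes and are not further evidence of them.

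**Figure D2:**
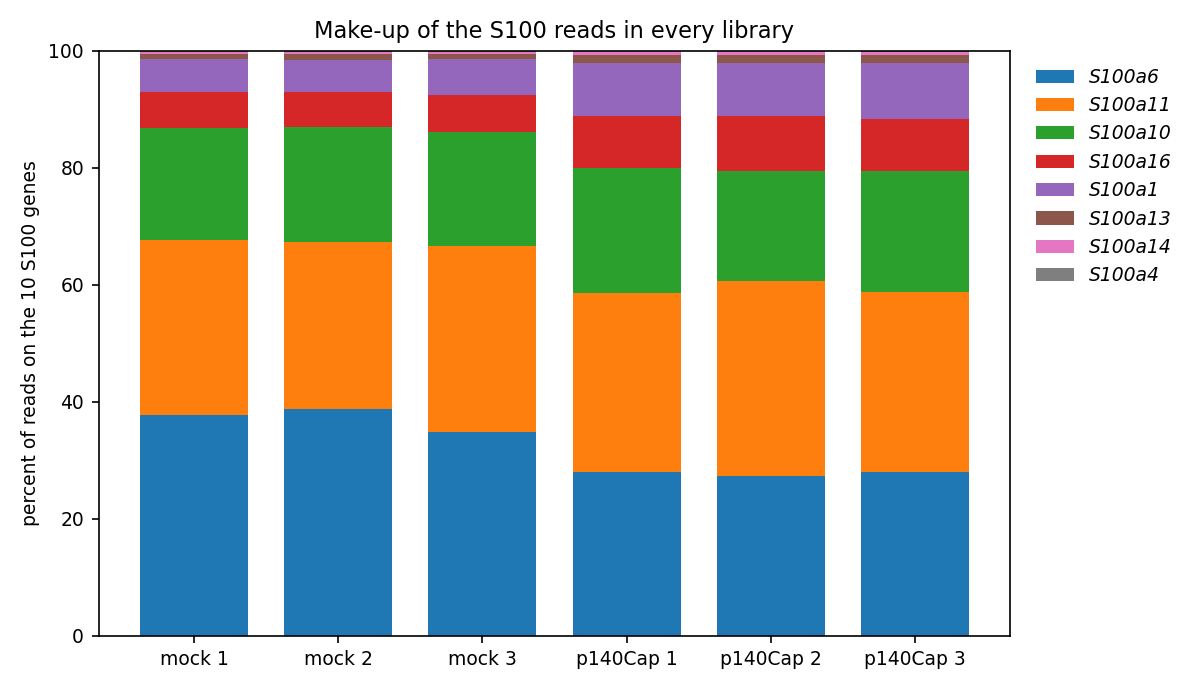
Share of the reads of the 10 S100 members on each gene (%, stacked bars) in each of the 6 libraries, with S100a8 and S100a9 too rare to be drawn. S100a6 takes 34.9% to 38.8% in mock and 27.2% to 28.0% in p140Cap libraries, and S100a1 and S100a16 take larger shares in p140Cap libraries.

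Per kb of the median or canonical transcript, the level of S100a6 stood first in both groups. In mock cells it had 503.5 ± 28.0 CPM per kb of the median coding transcript in the GENCODE annotation (SD, n = 3), followed by S100a11 with 142.9 ± 7.44. S100a1 had 74.2 ± 4.90, S100a10 59.5 ± 1.24 and S100a16 55.7 ± 1.18 CPM per kb. S100a13, S100a4 and S100a14 came next with 11.3 ± 0.529, 5.16 ± 0.687 and 3.00 ± 0.197 CPM per kb, ahead of S100a8 and S100a9. In p140Cap cells the order was the same but for 2 exchanges. S100a16, with 78.9 ± 0.983 CPM per kb, stood above S100a10, with 59.0 ± 5.03, and S100a14, with 5.26 ± 0.862, stood above S100a4, with 2.10 ± 1.26. The libraries of neighbors in this order did not overlap except those of S100a8 and S100a9 in p140Cap cells. Places in this order depend on the transcript taken. With its canonical length of 4412 bases in place of the median of 819 bases, S100a13 had 2.09 CPM per kb in mock and 3.28 in p140Cap cells, below S100a14 in both. Coding transcripts of S100a10 run from 852 to 5019 bases, and its level in mock cells was 238.6 CPM per kb with the shortest and 40.5 with the longest, so above the levels of S100a11, S100a1 and S100a16 at their median lengths in the first case and below all of them in the second. Its exchange with S100a16 therefore holds for the median and canonical lengths and is not fixed by the counts. S100a11, with coding transcripts of 459 to 2328 bases, likewise had 687.6 or 135.6 CPM per kb in mock cells. The higher of these values lies above that of S100a6 at its median length, so the first place is not fixed by the counts either.

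Ratios of members within a library do not depend on the library's scaling. A set of 6 pairs was compared, chosen after the members' values had been seen, with exact two-sided permutation tests whose p cannot fall below 0.1. The log2 ratio of S100a1 to S100a13, the genes with facing starts, was 2.72 ± 0.15 in mock and 2.66 ± 0.03 in p140Cap libraries (SD, n = 3), and the groups overlapped (exact p = 0.7, adjusted over the 6 pairs 0.84). Without mock replicate 2 the difference was -0.12 with no overlap, and without mock replicate 3 it was 0.02 with overlap. The log2 ratio of S100a16 to S100a6 moved from -2.60 ± 0.09 to -1.61 ± 0.07 with no overlap, a difference of 0.99 (exact p = 0.1, adjusted 0.2). This pair sets a member called higher against a member called lower. Its difference therefore repeats their changes and is not further evidence of them. S100a14 against S100a16, which both rose, differed by 0.30 with no overlap (exact p = 0.1, adjusted 0.2), and by 0.16 without p140Cap replicate 1. The ratio of S100a4 to S100a6, which both fell, differed by -0.97 (exact p = 0.1, adjusted 0.2), and the lowest mock library at -7.33 almost met the highest p140Cap library at -7.34. Without p140Cap replicate 1 this difference was -0.54, and without p140Cap replicate 3 it was -1.40. For S100a10 against S100a11 the difference was -0.01 (exact p = 0.9), with overlap. S100a10 against its partner Anxa2 gave -1.79 ± 0.05 and -1.86 ± 0.09 (exact p = 0.5, adjusted 0.75), and these groups overlapped too.

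Along the chromosome, called members that are direct neighbors moved the same way but for S100a16 and S100a4, which are 60.6 kb apart. The 4 higher genes S100a1, S100a13, S100a14 and S100a16 span 32.1 kb, and their log2 fold changes lay between 0.50 and 0.81. S100a4 and S100a6, with 6.85 kb between them, were both lower, and S100a11 and S100a10, 28.8 kb apart, were both not called. Of 70 other genes within 250 kb of a member or between them, 9 were tested, of which 5 were lower, 3 higher and 1 not called, with a median log2 fold change of -0.31. The 8 called neighbors are 88.9% of those tested, 55.6% lower and 33.3% higher, beside 71.1%, 35.9% and 35.2% of all tested genes, and with 9 genes nothing particular to the stretch is read from these shares. The 7 tested to the left of S100a1 were mixed, with 3 lower (Ints3, Ilf2 and Chtop), 3 higher (Dennd4b, Gatad2b and Snapin) and Slc27a3 not called. Chtop, the tested gene nearest to S100a1, had a log2 fold change of -0.35, opposite in sign to that of S100a1. Dennd4b, which encodes an exchange factor for a Rab GTPase, rose from 7.85 ± 0.627 to 15.5 ± 1.69 CPM (log2 fold change 0.98, SE 0.09, edgeR adjusted p = 9.78e-08).

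The largest fitted changes in this stretch belonged to rare genes. Gm9774, between the groups of members, had 164, 37 and 97 reads in mock and 0, 12 and 0 in p140Cap libraries (log2 fold change -2.83, SE 0.67, edgeR adjusted p = 0.00117), a call lost with DESeq2 (adjusted p = 0.167). It passed the filter through the mock libraries, in which it was higher. With at least 10 reads required in every library Gm9774 left the test, and 6 neighbors were called in place of 8. All p140Cap reads of Gm9774 lay in replicate 2, and without that library the fitted value was -9.15, which is no bound, while without p140Cap replicate 1 it was -2.22. Tchh, a gene of hair follicle proteins whose product carries an S100-type domain at its start, went from 125, 59 and 50 reads in mock to 12, 8 and 6 in p140Cap libraries. Its log2 fold change was -1.37 (SE 0.26, edgeR adjusted p = 0.000171), and the libraries of the groups did not overlap.

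**Figure D3:**
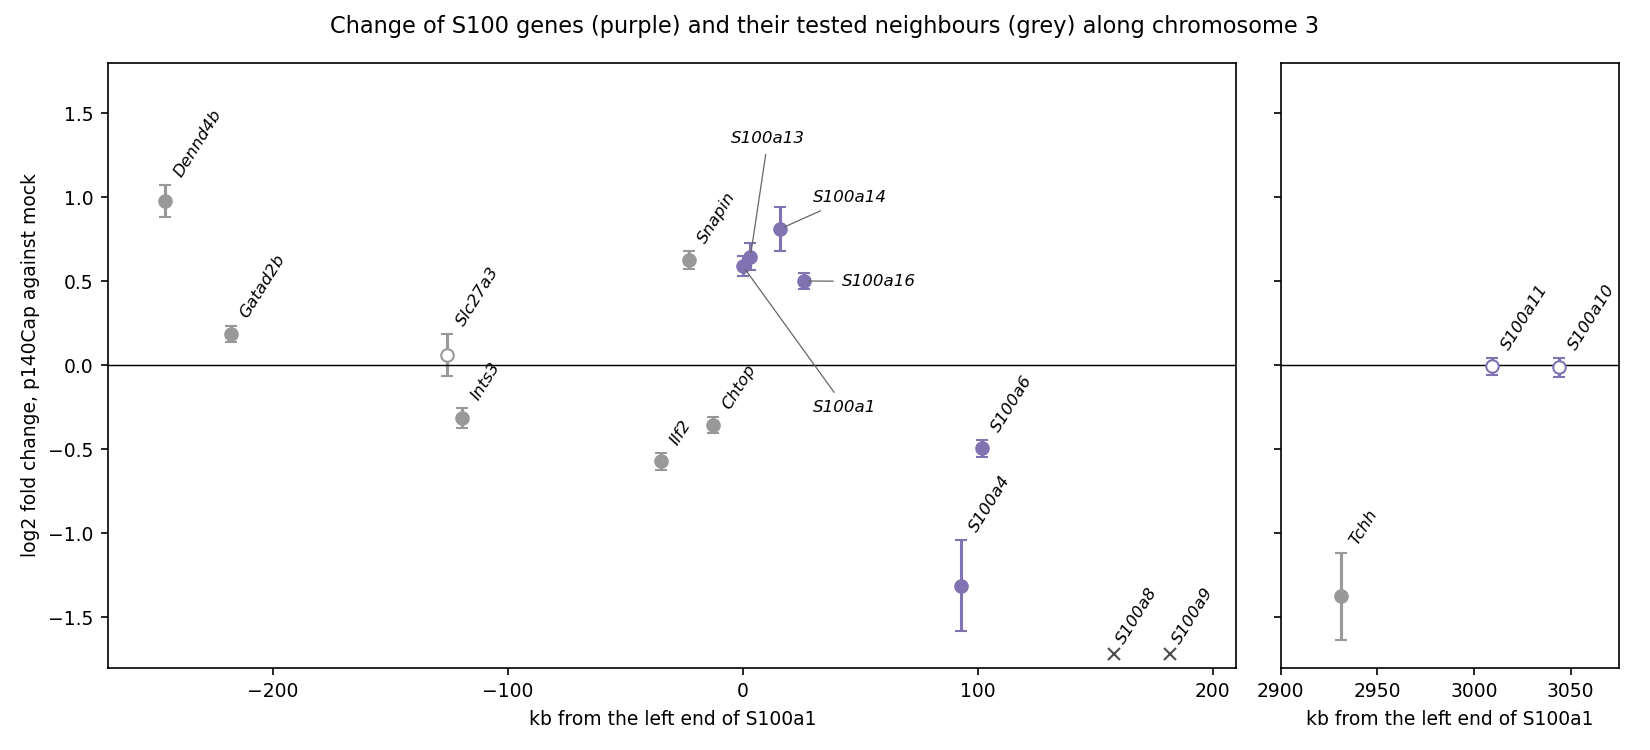
Log2 fold change of p140Cap against mock (SE bars) by distance in kb from the left end of S100a1, for S100 members (purple) and tested neighbors (gray), with filled points for called genes. S100a1 to S100a16 lie above 0, S100a4 and S100a6 below 0 and S100a11 and S100a10 at 0, crosses at the lower edge mark S100a8 and S100a9, which were not tested, and Gm9774, between the panels, is not drawn.

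The rest of the family was hardly expressed. Of 15 further genes listed, S100 genes and genes with an S100 domain fused to a longer protein, 14 were in the counts and Tchh alone had enough reads for the test. S100a3 was hit by 12, 12 and 5 reads in mock and 0, 1 and 6 in p140Cap libraries, a pooled ratio of mock to p140Cap of 1.20 (95% exact interval 0.516 to 3.26). It overlaps S100a2 and Gm42674 on its own strand. Of its 7 p140Cap reads, 6 lay in replicate 3, and without that library the ratio was 5.79 (0.96 to 236), while without p140Cap replicate 1 it was 0.784 (0.336 to 2.12). S100b, best known from glia, had 17 and 4 pooled reads, a ratio of 1.24 (0.403 to 5.04), and Hrnr had 9 and 1, with 8 of the 9 in mock replicate 1. For these 3 genes no difference was detectable at this depth. S100a7a, the mouse relative of psoriasin, went the other way, with 8, 4 and 11 reads in the deeper mock libraries and 15, 6 and 6 in the p140Cap libraries. Its pooled level in p140Cap was 4.04 times that in mock (95% exact interval 2.23 to 7.38). With no filter on low counts its log2 fold change was 1.91 (edgeR adjusted p = 0.000592). It was also called without p140Cap replicate 2 or without p140Cap replicate 3. There it passed the filter through the p140Cap libraries, in which it was higher, so these 2 calls are not independent support. All these calls include p140Cap replicate 1, which held 15 of the 27 p140Cap reads. Without it S100a7a passed the filter but was not called (log2 fold change 1.42, edgeR adjusted p = 0.0655), and the pooled ratio was 2.76 (95% exact interval 1.25 to 5.78).

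The lists of S100 partners, annexins, receptors and target proteins, held 27 tested genes, of which 10 were lower, 8 higher and 9 not called. The 18 called are 66.7% of the tested partners, beside 71.1% of all tested genes, so the share is near the background. Annexins bind membranes in the presence of calcium and are the best known partners, and of 12 listed 9 were tested, with 2 lower, 4 higher and 3 not called and a median log2 fold change of 0.06. This is 66.7% called, 22.2% lower and 44.4% higher, beside 71.1%, 35.9% and 35.2% of all tested genes. Anxa4 rose from 110 ± 2.02 to 179 ± 3.36 CPM (log2 fold change 0.70, SE 0.05, edgeR adjusted p = 7.51e-10) and Anxa9 changed by 0.44. Anxa1, the partner of S100A11, fell by 0.28 on the log2 scale. Anxa2, the partner of S100A10, had 700.5 ± 16.7 CPM in mock and 729 ± 18.1 CPM in p140Cap libraries and was not called (edgeR adjusted p = 0.274).

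Receptors reported to bind S100 proteins outside the cell numbered 9, of which 8 were tested. Of these, 2 were higher, 2 lower and 4 not called, with a median log2 fold change of -0.05. The share called was 50.0%, beside 71.1% of all tested genes, with 25.0% in each direction beside 35.2% higher and 35.9% lower. The count called was not stable, with 6 of these genes called when libraries were scaled by library size alone in place of 4, and nothing is read from the share. Cd14, a coreceptor of TLR4, rose from 101 ± 3.64 to 247 ± 5.70 CPM (log2 fold change 1.29, SE 0.05, edgeR adjusted p = 1.43e-12). Bsg, which encodes basigin, a receptor for S100A9, rose from 1453 ± 109 to 3122 ± 117 CPM (1.10, SE 0.06, edgeR adjusted p = 5.11e-11). Alcam, an adhesion molecule, went from 9.90 ± 0.686 to 4.53 ± 0.518 CPM (-1.14, SE 0.11, edgeR adjusted p = 1.40e-07). Ager, which encodes RAGE, and Tlr4 were not called, with log2 fold changes of 0.08 and -0.12.

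Inside the cell, 10 of 12 listed target proteins were tested, and 6 were lower, 2 higher and 2 not called, with a median log2 fold change of -0.23. Of these 10 genes 80.0% were called, 60.0% lower and 20.0% higher, where all tested genes gave 71.1%, 35.9% and 35.2%, and whether the list differs from other genes was not tested. Cacybp, which encodes the adaptor that calcyclin binds, went from 114 ± 6.31 to 45.4 ± 4.57 CPM (log2 fold change -1.33, SE 0.07, edgeR adjusted p = 4.51e-11). Its change had the same sign as that of S100a6. Myh10, a heavy chain of non-muscle myosin, changed by -0.99 and the phosphatase gene Ppp5c by -0.64. Myh9, another such heavy chain and 1 of the 2 higher genes, rose from 612 ± 54.8 to 806 ± 52.3 CPM (log2 fold change 0.40, edgeR adjusted p = 3.22e-05).

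Among 28 other genes of EF-hand proteins, 22 were tested, and 6 were lower, 10 higher and 6 not called, with a median log2 fold change of 0.11. The 72.7% called is near the 71.1% of all tested genes, with 27.3% lower beside 35.9% and 45.5% higher beside 35.2%. The count called was not stable, with 13 called in place of 16 when the replicate number was a block. Ncs1, the neuronal calcium sensor, changed by -1.79 (SE 0.20, edgeR adjusted p = 6.26e-07) and went from 2.94 ± 0.068 to 0.847 ± 0.181 CPM. It had 9 reads in p140Cap replicate 3 and left the test when at least 10 reads were required in every library. Rcn1 and Nucb2, which encode calcium-binding proteins of the secretory pathway, rose by 0.63 and 0.58 on the log2 scale.

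**Figure D4:**
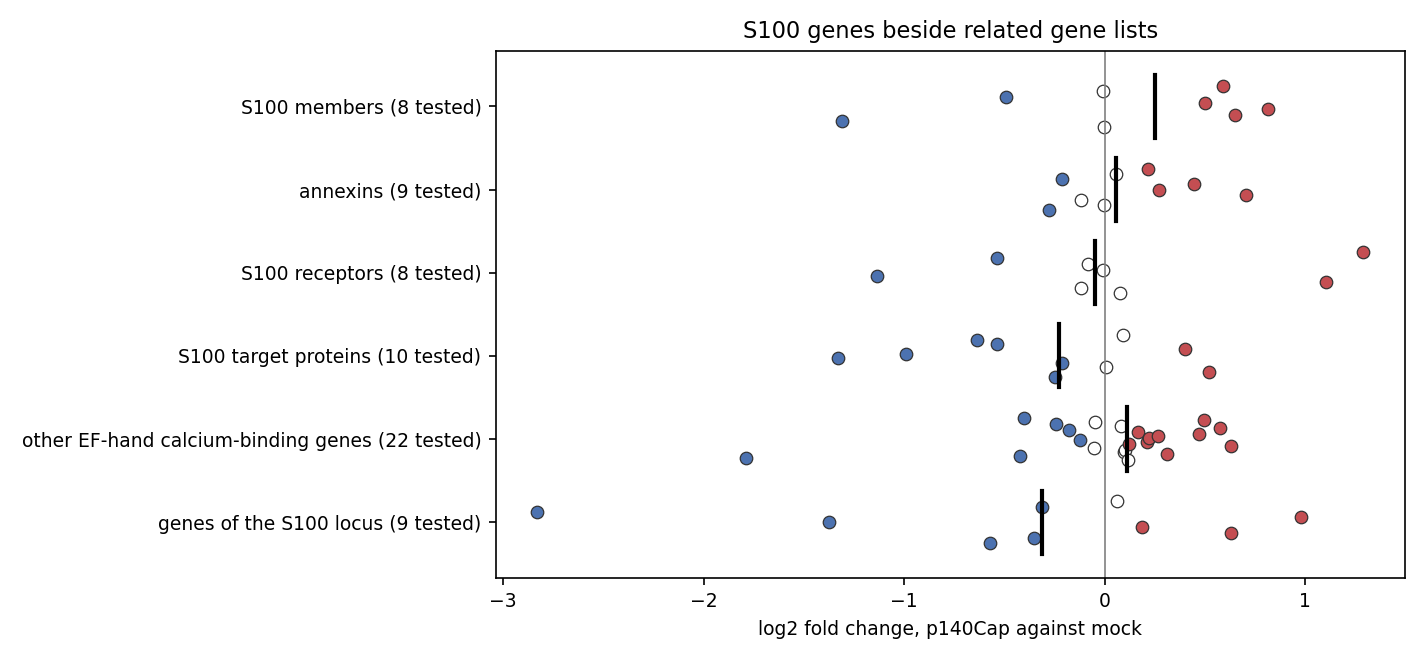
Log2 fold change of p140Cap against mock for each tested gene of the S100 members and 5 related lists (points), blue for lower, red for higher and white for not called, with a black bar at each median. The S100 members run from -1.31 to 0.81 with a median of 0.25, and every list holds genes on both sides of 0.

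Genes with a profile over the 6 libraries most like that of S100a16, the member with the smallest p, were found by Euclidean distance of log2 CPM centered on the mock mean. The 5 nearest of all tested genes were Lgals3 (distance 0.0367), which encodes galectin-3, Limd2 (0.0453), Cd99l2 (0.0479), St3gal5 (0.0489), which encodes a ganglioside synthase, and Slc39a1 (0.0509), which encodes a zinc importer. Their log2 fold changes lay between 0.49 and 0.52, beside 0.50 for S100a16, a nearness that follows from how they were picked. Lgals3 went from 72.1 ± 1.36 to 102.5 ± 1.39 CPM. Slc39a1 lies on chromosome 3 as well, 257 kb to the left of S100a1 and thus just outside the neighbors counted here, whereas the other 4 lie on other chromosomes.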

How the data were processed

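RNA-Seq was analyzed for 3 mock and 3 p140Cap TuBo libraries, from a poly(A)-selecting kit (labels) that keeps the strand (paper). The authors deposited counts, whole numbers of reads on 21960 genes in each library with no normalization. The submitters' processing notes name STAR 2.5, RSEM 0.1.1 and mm10. The paper names docker4seq and, for mouse, GRCm39. These builds differ, so the build behind the counts is not settled, and no source used here gives the tools' roles, the annotation or the strand setting.

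Counts were analyzed in R 4.3.3 with TMM factors, filterByExpr by group and edgeR 4.0.16 (quasi-likelihood test on condition alone), with Benjamini-Hochberg adjustment over 11800 genes at 0.05. SE was derived from the log2 fold change and its F value. The test was checked on simulated counts. The common coefficient of variation was 4.57%. Intervals on pooled reads are 95% exact intervals. No library was a copy of another.

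The members and lists were chosen with earlier results of these data known. Named were all members, other S100 genes with at least 10 reads, Srcin1, the 3 called genes of each list that changed most, and the 5 genes nearest to the member with the smallest p. Other list and neighbor genes were named after their values were seen. Alternatives were DESeq2 1.42.0, limma-voom (limma 3.58.1), RLE factors, library size alone, no filter, at least 10 reads in every library, thinning to the smallest library, leaving out each library and a replicate block. Positions and sequences are from RefSeq (GRCm38.p6), and 93.6% of genes matched. Transcript lengths and overlaps are from the GENCODE annotation of GRCm39. Protein sequences were not used here.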

Additional observations from a re-analysis of the deposited data

How the results depend on the processing

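With at least 10 reads required in every library, S100a4 left the test (8 reads in p140Cap replicate 1), and 1 member was called lower in place of 2. The count of other S100 and fused-type genes called, 1 (Tchh) as reported, was 0 under that filter, since Tchh left the test too, and 2 with no filter on low counts, which added S100a7a. With 1 library left out it ranged from 1 to 2, and was 2 without p140Cap replicate 2 or p140Cap replicate 3. Gm9774 was not called by DESeq2 (adjusted p = 0.167), and the cause was not tested. With single libraries left out its log2 fold change ranged from -9.15 (without p140Cap replicate 2) to -2.22, and it was called each time. The 4 members called higher stayed at 4 under all 14 alternatives. Same-numbered libraries did not deviate together (correlations -0.03, -0.11 and -0.06), so the numbers were not taken as pairs, and with the replicate number as a block 8034 genes were called in place of 8388, with 4 members higher and 2 lower. Scaling by library size alone raised the S100 receptors called from 4 to 6, and no filter gave 5. With 1 library left out, 7851 to 8253 genes were called. Scaling by library size alone moved the median of all genes to -0.04. Depth limits S100a8, S100a9, S100a3, S100b and Hrnr, which had too few reads for the test. Other transcript lengths for the levels per kb were chosen after seeing the data.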
